A study of Mus musculus with 15 samples.

Results

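Genes for the nuclear-encoded subunits of oxidative phosphorylation were followed in splenic regulatory T cells (Treg) with Notch signalling switched on, with its DNA-binding protein RBPJ deleted, or with both changes. A gene was included by its symbol, which had to begin with Ndufa, Ndufb, Ndufc, Ndufs, Ndufv, Uqcr, Cox4 to Cox8 or Atp5, or be one of Sdha to Sdhd or Cyc1, and its array feature (transcript cluster) had to name 1 gene. This gave 83 of the 19752 genes tested. By the start of the symbol alone, 36 were assigned to complex I, 4 to complex II, 9 to complex III, 17 to complex IV and 17 to complex V. Cox7c, Ndufb4 and Ndufb4b were left out because their clusters name several genes. Ndufb1, Ndufb4c and the mitochondrially encoded subunits were not analysed here. The 19 pseudogenes with such symbols and the assembly factors named Ndufaf were not counted as members. Clusters that name a member but lie away from its locus were kept, and whether they read a pseudogene was not tested.

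Oxidative phosphorylation takes electrons from NADH and succinate through complexes I and II to ubiquinone, on through complex III and cytochrome c to complex IV, and uses the proton gradient so built to make ATP in complex V, the ATP synthase. Each complex other than complex II combines nuclear subunits with ones that the mitochondrion itself encodes. Treg are known to rely on mitochondrial respiration more than conventional effector T cells do.

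The cells came from spleens of 6-week-old male mice and were sorted on CD3, TCRbeta, CD4 and GFP made with Foxp3. All 4 groups carry the Foxp3EGFPCre allele, so Cre acts in Foxp3-expressing cells. The N1c_RBPJdel group (genotype R26N1c/N1c RBPJ∆/∆, 3 arrays) makes the active intracellular part of Notch1 and has lost RBPJ, through which that fragment is known to drive transcription. The N1c group (R26N1c/N1c, 4 arrays) carries the Notch1 allele with RBPJ present, the RBPJdel group (RBPJ∆/∆, 4 arrays) carries the deletion without the Notch1 allele, and the control group (4 arrays) carries Foxp3EGFPCre alone. Each array used 40000 to 50000 pooled cells of more than 1 mouse, and the labels give the lines that were crossed but not how far the strains had been matched. The sorter was a FACSAria for N1c_RBPJdel and a MoFlo for the other groups, so genotype and sorter cannot be told apart in any comparison with N1c_RBPJdel. Values are array intensities on a linear scale, differences are log2 values with their SE (standard error, from limma), and a gene was called where p adjusted over all 19752 genes was under 0.05.

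The probes for Rbpj read 175 to 258 in N1c_RBPJdel and 225 to 294 in RBPJdel, against 489 to 572 in N1c and 470 to 571 in control, so both deleted groups lay below both groups with the gene. Foxp3, which defines Treg, read 3543 to 4943 in N1c_RBPJdel, 4018 to 4865 in N1c, 4294 to 6248 in RBPJdel and 4761 to 5331 in control. Of 10 measured Treg markers, 2 were higher in N1c_RBPJdel against N1c (Tnfrsf4 and Tnfrsf18), where 4.58% of all genes were. The difference was negative for 6 of the 10, without a call. Markers of other blood cells were low but not equal: the summed intensity of 13 neutrophil markers was 838 to 935 in N1c_RBPJdel, against 590 to 754 in N1c, 651 to 747 in RBPJdel and 620 to 690 in control. That of 11 B cell markers was 935 to 1214 in N1c_RBPJdel, against 761 to 824 in N1c, 888 to 1038 in RBPJdel and 805 to 880 in control, and that of 10 erythroid markers was 969 to 1822 in N1c_RBPJdel, against 879 to 1053 in N1c, 787 to 901 in RBPJdel and 843 to 908 in control. In N1c_RBPJdel against N1c, 6 of the neutrophil, 5 of the B cell and 4 of the erythroid markers were higher, where 4.58% of all genes were, and 1 erythroid marker, Tfrc, was lower. Also higher there were 2 of 14 myeloid markers (C1qb and Lyz2), 1 of 11 dendritic cell markers (Clec9a) and 3 of 11 NK cell markers (Fcer1g, Klrk1 and Klrd1), and 1 NK cell marker, Prf1, was lower. Of 8 CD8 T cell markers 0 were called there. In N1c_RBPJdel against control 1 of them, Gzmk, was higher, where 3.77% of all genes were. Also higher against control were 5 of 13 neutrophil, 4 of 11 B cell, 3 of 10 erythroid, 2 of 11 NK cell and 1 of 14 myeloid markers. Of the erythroid markers 1 was lower there, and 0 of 11 dendritic cell markers were higher. The summed intensity of the NK cell markers was 693 to 753 in N1c_RBPJdel, against 613 to 809 in N1c, 559 to 636 in RBPJdel and 528 to 687 in control, and those of the myeloid and dendritic cell markers overlapped between N1c_RBPJdel and each other group. The 75th percentile of intensity was 330, 366 and 325 on N1c_RBPJdel 1, 2 and 3, against 340 to 385 in N1c, 354 to 362 in RBPJdel and 356 to 378 in control. The part of these differences in the results below was not tested, and since the samples are bulk, fewer cells of a type and less RNA per cell cannot be told apart.

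Atp5md, a small accessory subunit of ATP synthase also known as Usmg5 that is known for its part in keeping the dimers of that enzyme stable, had by far the lowest levels in N1c_RBPJdel. Its brightest cluster read 755, 708 and 588 in N1c_RBPJdel. It read 4239, 3579, 4079 and 3722 in N1c, 3275, 2292, 3677 and 3685 in RBPJdel, and 2926, 3238, 2528 and 3003 in control. Every N1c_RBPJdel array lay below every array of the other groups, and the highest of them was under the lowest of the rest by a wide margin. Atp5md fell by 2.52 ± 0.15 on the log2 scale (SE) in N1c_RBPJdel against N1c, a 5.73-fold lower level, with an adjusted p of 2.04e-08. It fell by 2.22 ± 0.15 against RBPJdel (4.67-fold, adjusted p = 6.05e-07) and the difference from control was -2.10 ± 0.15 (4.28-fold lower, adjusted p = 1.17e-06). Among all genes tested, no gene fell further than Atp5md against RBPJdel or against control, and 7 did against N1c. These 3 comparisons share the N1c_RBPJdel arrays and are not independent of each other.

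Neither single change gave such a level. In N1c alone, all 4 arrays of Atp5md were above all control arrays, by 0.42 ± 0.14 on the log2 scale, which did not pass the threshold (adjusted p = 0.216). In RBPJdel the difference from control was 0.13 ± 0.14 and the groups overlapped (adjusted p = 0.909), with RBPJdel 2 the lowest of all arrays that are not N1c_RBPJdel. The interaction, which is the N1c effect in cells without RBPJ minus the N1c effect in cells with it, was -2.64 ± 0.20 for Atp5md (adjusted p = 1.75e-06), a value that holds the N1c_RBPJdel arrays and with them the change of sorter. It was the 1 subunit gene of 83 called in the interaction, where 0.84% of all genes were called (0.319% higher and 0.521% lower).

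The fall did not rest on 1 cluster. The array holds 3 clusters that name Atp5md (10603833, 10468287 and 10572813), and the IDs beside them place only 10468287 at the gene's own locus on chromosome 19, between Pcgf6 and Calhm2. This cluster read 516, 500 and 361 in N1c_RBPJdel. It read 2120 to 2585 in N1c, 1182 to 2427 in RBPJdel and 1661 to 1952 in control, and the N1c_RBPJdel arrays were again below all others. The log2 difference in N1c_RBPJdel against N1c was -2.40 ± 0.19 for it and -2.47 ± 0.20 for 10572813, and both passed the threshold when each cluster was tested by itself (adjusted p = 2.38e-06 each, over 24922 clusters). The clusters are not independent measurements, since these 2 gave the same intensity of 1952 on control 3. The plot of Atp5md by array shows the 3 clusters, among which RBPJdel 2 is the lowest MoFlo-sorted array each time.

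**Figure D1:**
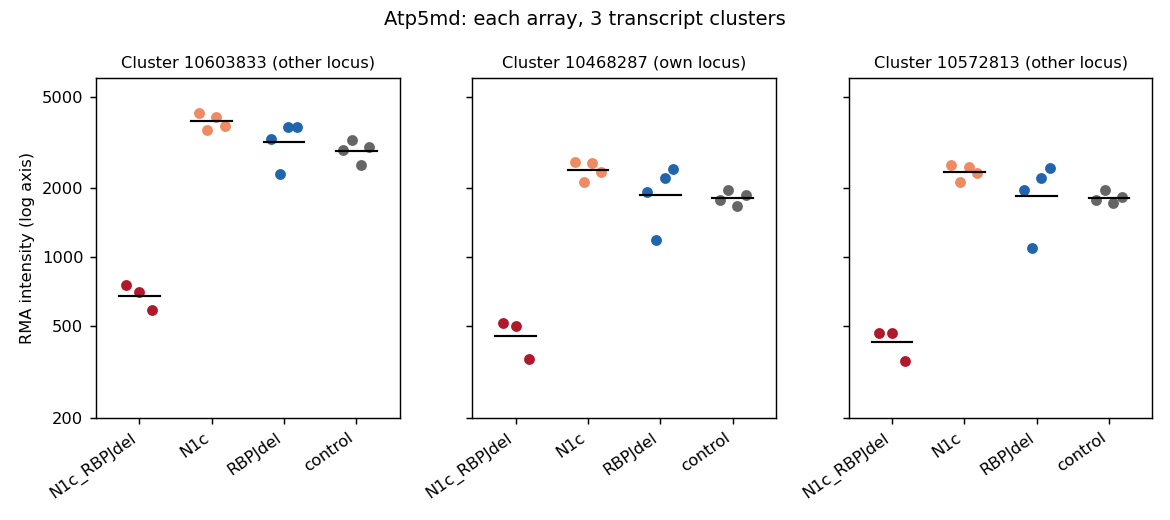
Atp5md intensity on each array (log axis) in the 3 transcript clusters that name the gene, by genotype; points are arrays and bars are geometric means. The N1c_RBPJdel arrays lie between 353 and 755 over the 3 clusters, below every array of the same cluster in the other groups, of which RBPJdel 2 in cluster 10572813 is the lowest at 1099.

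The genes beside Atp5md on chromosome 19 did not share a shift of that size. Of the 5 measured genes on each side, from Cnnm2 to Taf5 and from Pdcd11 to Sh3pxd2a, the log2 differences in N1c_RBPJdel against N1c ran from -0.44 to 0.095, and none of the 10 was called. Against control they ran from -0.51 to 0.22, and Taf5, for a subunit of the general transcription factor TFIID, (-0.43 ± 0.12, adjusted p = 0.0312) and Sh3pxd2a, for a scaffold protein of podosomes, (-0.51 ± 0.15, adjusted p = 0.0435) fell. The next gene on either side, Taf5 and Pdcd11, differed from N1c by -0.32 ± 0.12 and -0.05 ± 0.13, and neither passed the threshold. Not all neighbours were bright. Ina read 50.4 to 72.7 and Calhm1 48.7 to 78.6, below the lowest array median of 107, where a large fall may not show.

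**Figure D2:**
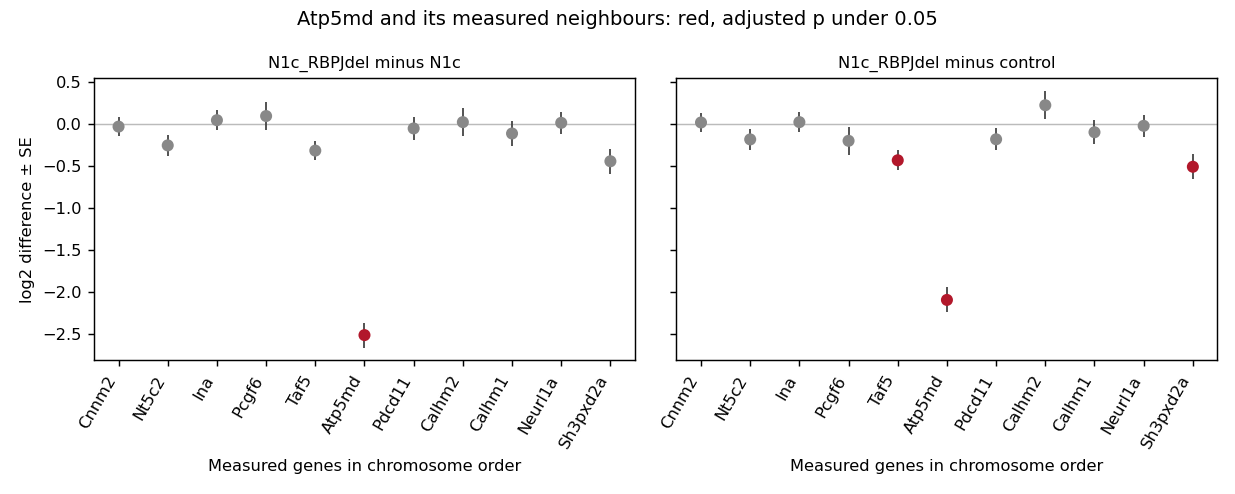
Log2 difference ± SE of Atp5md and its 5 measured neighbours on each side, in chromosome order, for N1c_RBPJdel minus N1c (left) and minus control (right); red marks an adjusted p under 0.05. Atp5md stands at -2.52 and -2.10, and the 10 neighbours lie between -0.51 and 0.22.

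The promoter window of Atp5md is printed because this gene carries the largest difference among the subunit genes, and it shows which letters of common promoter motifs stand at its start. The window is the 300 bases around the annotated start in RefSeq (GRCm38.p6), chr19:47090598-47090897 on the minus strand, read 5′ to 3′ along the gene. Capitals mark matches, on either strand, to 6 motifs. The motif of NRF1, an activator of respiratory genes, was searched as GCGCATGCG. That of ETS factors, the family of GABP, was searched as CCGGAAG. YY1, a zinc finger factor, was searched as AAGATGG. RBPJ was searched as GTGGGAA, the core that the protein is known to bind. SP factors, known to act at promoters rich in G and C, were searched as GGGCGG. The TATA box was searched as TATAAA.

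Atp5md: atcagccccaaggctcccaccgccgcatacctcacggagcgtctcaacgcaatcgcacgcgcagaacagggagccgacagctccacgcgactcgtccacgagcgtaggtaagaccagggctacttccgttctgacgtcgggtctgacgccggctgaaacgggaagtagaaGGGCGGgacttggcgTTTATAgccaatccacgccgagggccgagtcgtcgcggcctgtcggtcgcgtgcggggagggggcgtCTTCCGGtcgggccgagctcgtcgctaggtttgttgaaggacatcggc

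The window held the SP, the TATA and the ETS letters once each, none overlapping another, and not the RBPJ letters. Over the 67 subunit genes with a window, RBPJ letters were present in 3 (4.48%; Atp5d, Atp5k and Ndufb2), against 7.25% of all 27025 genes with one. NRF1 letters were present in 8 subunit genes (11.9%, against 1.95% of all genes), ETS letters in 17 (25.4%, against 9.93%) and YY1 letters in 10 (14.9%, against 7.28%). SP letters (41.8%, against 38.2%) and TATA letters (11.9%, against 15.7%) were at shares closer to those of all genes. A match says only that these letters stand in the window.

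The other 82 subunit genes differed far less between N1c_RBPJdel and the other groups than Atp5md did. In N1c_RBPJdel against N1c, 3 of 83 subunit genes were called, all lower, where 9.23% of all genes were called, 4.58% higher and 4.65% lower. Besides Atp5md these were Cox6a1, the widely expressed form of a complex IV subunit that also has a muscle form, and Ndufb6, an accessory subunit of the membrane arm of complex I. Cox6a1 read 545, 714 and 525 in N1c_RBPJdel, 1054, 920, 996 and 892 in N1c, 735, 775, 787 and 1315 in RBPJdel, and 750, 724, 652 and 901 in control. It was lower in all 3 N1c_RBPJdel arrays than in any N1c or RBPJdel array and overlapped control, where N1c_RBPJdel 2 stood among them. It fell by 0.71 ± 0.17 against N1c (adjusted p = 0.0180), and with N1c_RBPJdel 2 as the lone array of its group the difference was -0.43 (adjusted p = 0.378). Without N1c_RBPJdel 1, N1c_RBPJdel 3 or N1c 1 the adjusted p was 0.0764, 0.0651 and 0.0541, under cyclic loess it was 0.0580, and the call held in 22 of 27 alternatives.

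Ndufb6 read 551, 502 and 501 in N1c_RBPJdel, 939, 712, 953 and 629 in N1c, 634, 502, 695 and 877 in RBPJdel, and 580, 652, 643 and 636 in control. The N1c_RBPJdel arrays were below all N1c and control arrays and overlapped RBPJdel 2. Ndufb6 fell by 0.62 ± 0.16 against N1c (adjusted p = 0.0255). Leaving out N1c 1 gave -0.54 (adjusted p = 0.0822) and leaving out N1c 4 gave -0.53 (adjusted p = 0.0688), and without N1c_RBPJdel 1 or N1c_RBPJdel 3 the adjusted p was 0.0570 and 0.0679. The call also ended under quantile normalization (adjusted p = 0.0669) and under cyclic loess (adjusted p = 0.0856), and it held in 19 of the 27 alternatives run for it.

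By complex, the medians of the log2 difference in N1c_RBPJdel against N1c were -0.145 for complex I, 0.0628 for complex II, -0.137 for complex III, -0.0979 for complex IV and -0.186 for complex V without Atp5md. Over all 83 genes the median was -0.143 and 56 were negative, against a median of 0.0202 over all genes tested and -0.0901 over the brighter ones among them (mean log2 level above the median of all genes), in which 77 of the subunit genes lie. Quantile normalization brought the subunit median to -0.0215, against -0.0226 over all genes, with 38 positive and 2 genes called in each direction. Under it 6.84% of all genes were called. The arrays did not overlap for 14 genes, 12 lower (14.5%, where 8.42% of all genes were) and 2 higher (2.41%, where 7.95% of all genes were). The 12 included Uqcrc2, a core protein of complex III, Ndufv2, which holds an iron-sulfur cluster of complex I, Atp5e of the ATP synthase stalk and Atp5pb of its stator, and the 2 were Ndufs7 and Cox6b2. The extremes that were not called were Ndufa1 (-0.66 ± 0.26, adjusted p = 0.114) and Ndufa7 (0.67 ± 0.25, adjusted p = 0.105) in complex I, Sdha (-0.14 ± 0.15, adjusted p = 0.572) and Sdhd (0.09 ± 0.13, adjusted p = 0.703) in complex II, and Uqcrq (-0.52 ± 0.17, adjusted p = 0.0554) and Uqcr11 (0.59 ± 0.21, adjusted p = 0.0830) in complex III. In complex IV the most positive was the testis form Cox6b2 (0.39 ± 0.13, adjusted p = 0.0723), and in complex V it was Atp5g1 of the rotating ring (0.14 ± 0.14, adjusted p = 0.546).

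**Figure D3:**
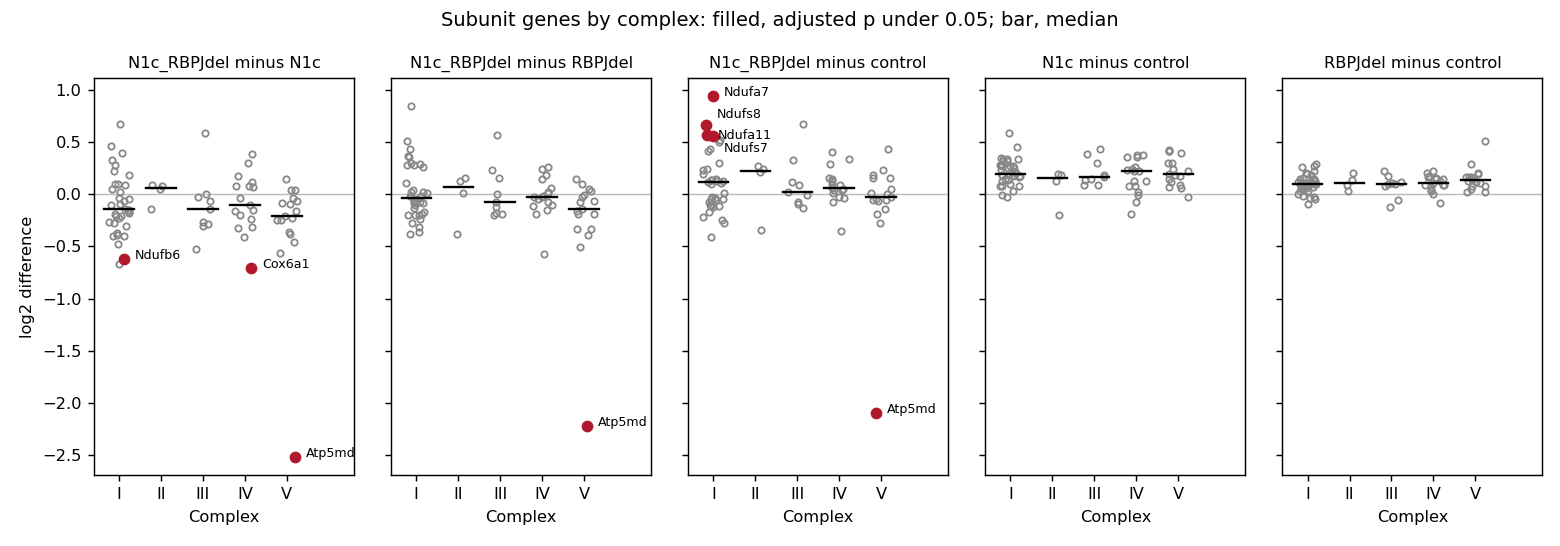
Log2 difference of each subunit gene by complex in 5 comparisons; each point is a gene, filled where its adjusted p was under 0.05, and bars are medians. Atp5md stands below -2 in each comparison with N1c_RBPJdel, all other genes lie between -0.71 and 0.94, and most points of N1c minus control and RBPJdel minus control are above 0 without any being called.

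Against control, 5 of 83 subunit genes were called in N1c_RBPJdel, 1 lower and 4 higher, where 8.9% of all genes were called, 3.77% higher and 5.12% lower. The 4 higher genes all belong to complex I. Ndufs7 and Ndufs8 are core subunits that hold iron-sulfur clusters on the path of electrons to ubiquinone, and Ndufa7 and Ndufa11 are accessory subunits. Ndufs8 read 1641, 2122 and 1367 in N1c_RBPJdel, 1242, 1113, 1804 and 1072 in N1c, 1133, 1350, 1213 and 1557 in RBPJdel, and 1210, 1071, 994 and 988 in control. All N1c_RBPJdel arrays were above all control arrays, and N1c_RBPJdel overlapped N1c and RBPJdel. Ndufs8 rose by 0.66 ± 0.17 against control (adjusted p = 0.0280).

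Ndufs7 read 3011, 4399 and 2859 in N1c_RBPJdel, 2412, 2052, 2529 and 2799 in N1c, 3026, 2810, 2547 and 2617 in RBPJdel, and 2103, 2380, 1942 and 2761 in control. It was above all N1c and control arrays in N1c_RBPJdel, and N1c_RBPJdel 2 stood well above the other arrays. It rose by 0.56 ± 0.15 against control (adjusted p = 0.0315). Ndufa7 read 1024, 1061 and 792 in N1c_RBPJdel, 498, 416, 848 and 727 in N1c, 409, 453, 507 and 834 in RBPJdel, and 446, 399, 499 and 681 in control. Its N1c_RBPJdel arrays lay above all control arrays and overlapped N1c 4 and RBPJdel 4. The rise against control was 0.94 ± 0.25 (adjusted p = 0.0308).

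Ndufa11 read 1022, 1464 and 858 in N1c_RBPJdel, 817, 804, 969 and 871 in N1c, 741, 768, 674 and 876 in RBPJdel, and 692, 730, 685 and 837 in control. N1c_RBPJdel 2 was again the highest of all arrays, and N1c_RBPJdel 3 stood just above the highest control array. It rose by 0.57 ± 0.15 against control (adjusted p = 0.0272), but this is the cluster 10434664, whose neighbouring IDs are not at the gene's locus, and the cluster at the gene's own locus gave an adjusted p of 0.0718. Without N1c_RBPJdel 2 none of the 4 higher genes passed the threshold, and the differences from control were 0.50 for Ndufs8, 0.37 for Ndufs7, 0.86 for Ndufa7 and 0.35 for Ndufa11. Leaving out N1c_RBPJdel 1 also ended all 4 calls, with differences of 0.68 for Ndufs8, 0.64 for Ndufs7, 0.89 for Ndufa7 and 0.61 for Ndufa11. So did leaving out control 3, with differences of 0.56 to 0.84, or control 4, with 0.48 to 0.94, and leaving out control 2 ended all but that of Ndufs8. Quantile normalization gave 11 called genes of the 83 against control, 10 higher and 1 lower, where 5.78% of all genes were called under it.

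**Figure D4:**
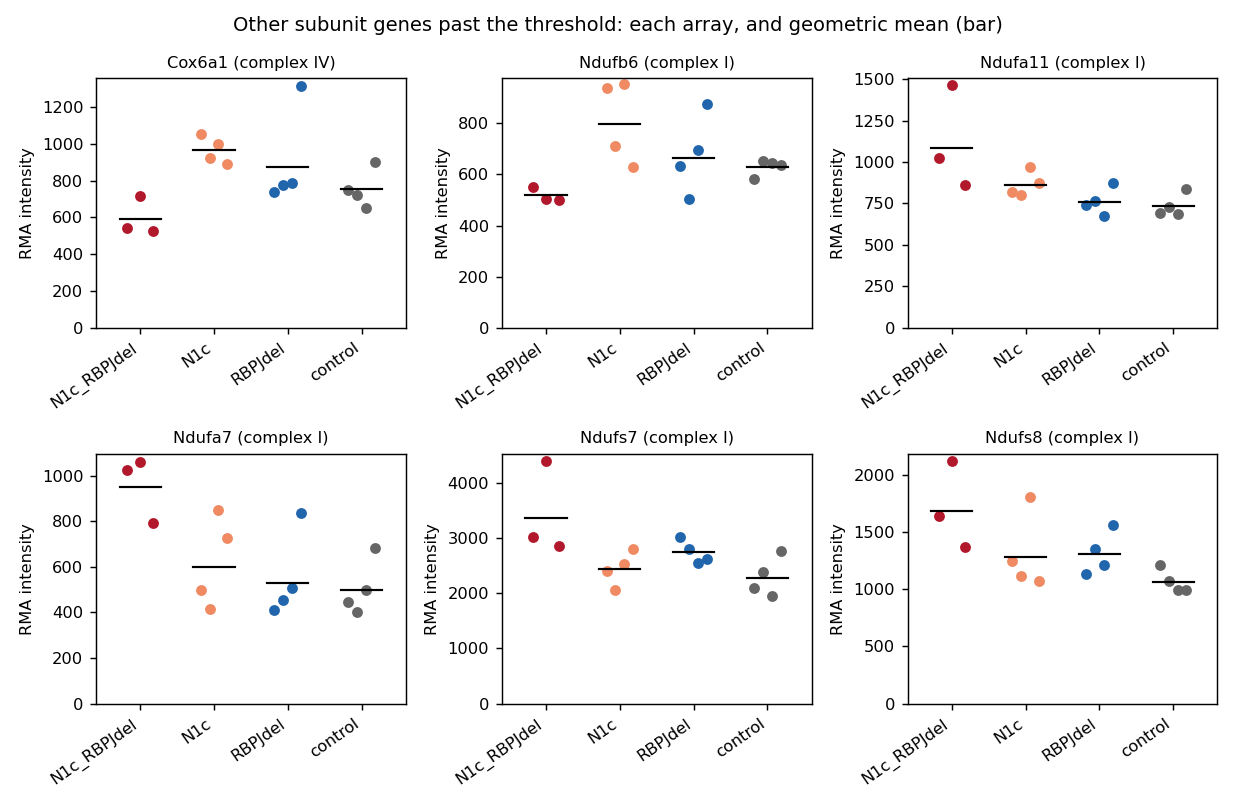
Intensity on each array of the 6 subunit genes other than Atp5md that passed the threshold in a comparison; points are arrays, bars are geometric means and each axis starts at 0. Cox6a1 and Ndufb6 are lowest in N1c_RBPJdel relative to N1c, and the N1c_RBPJdel arrays of Ndufa11, Ndufa7, Ndufs7 and Ndufs8 are above all control arrays.

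Promoter windows of 3 of these genes are shown so that the letters can be set beside those of Atp5md. In N1c_RBPJdel, Cox6a1 was called lower against N1c, and Ndufs7 and Ndufs8 were called higher against control, which are different comparisons. The windows are chr5:115348909-115349208 on the minus strand, chr10:80249199-80249498 on the plus strand and chr19:3912725-3913024 on the minus strand, with the same capitals as above.

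Cox6a1: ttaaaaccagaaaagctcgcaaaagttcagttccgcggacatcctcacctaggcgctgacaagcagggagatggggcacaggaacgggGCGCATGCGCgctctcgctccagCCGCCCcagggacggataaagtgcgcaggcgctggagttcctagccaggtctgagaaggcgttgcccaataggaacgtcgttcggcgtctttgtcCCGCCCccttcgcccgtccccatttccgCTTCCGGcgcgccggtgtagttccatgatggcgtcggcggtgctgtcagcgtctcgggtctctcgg

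Ndufs7: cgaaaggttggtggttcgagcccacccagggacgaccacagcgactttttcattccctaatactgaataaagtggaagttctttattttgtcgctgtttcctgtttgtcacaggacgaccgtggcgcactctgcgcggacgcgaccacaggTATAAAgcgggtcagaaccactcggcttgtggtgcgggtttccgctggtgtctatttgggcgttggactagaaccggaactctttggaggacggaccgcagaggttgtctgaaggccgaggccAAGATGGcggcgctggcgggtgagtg

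Ndufs8: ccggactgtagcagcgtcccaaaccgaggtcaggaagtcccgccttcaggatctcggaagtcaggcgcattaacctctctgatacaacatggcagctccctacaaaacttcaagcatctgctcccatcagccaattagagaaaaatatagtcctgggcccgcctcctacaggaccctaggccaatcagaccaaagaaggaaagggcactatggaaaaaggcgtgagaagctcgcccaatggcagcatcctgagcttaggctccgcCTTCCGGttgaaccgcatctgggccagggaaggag

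Cox6a1 held NRF1 letters on both strands of 1 stretch, ETS letters and SP letters, Ndufs7 held TATA and YY1 letters, and Ndufs8 held ETS letters. None of the 3 held the RBPJ letters.

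The 6 measured core subunits of complex I had a median difference from control of 0.212 in N1c_RBPJdel, with 2 called higher. Without overlap between the arrays, 14 subunit genes were higher in N1c_RBPJdel than in control (16.9%, where 9.11% of all genes were) and 3 were lower (3.61%, where 9.57% were), which were Atp5md, Ndufb6 and Sdha, the flavoprotein of complex II. The median of all 83 was 0.0544 and 50 were positive, against 0.0226 over all genes and -0.104 over the brighter ones. Quantile normalization gave a median of 0.151 with 65 positive, and cyclic loess 0.164 with 68, against -0.0233 and -0.003 over all genes. Against RBPJdel, 1 of 83 was called, Atp5md, where 2.29% of all genes were called (1.32% higher and 0.967% lower). The median was -0.0443, against -0.0121 over all genes. Under quantile normalization it turned to 0.0537, against -0.0281 over all genes. The arrays did not overlap for 6 lower genes (7.23%, where 8.45% of all genes did not) and for 1 higher gene, Ndufs3 (1.2%, where 7.38% of all genes did not). The other 82 ranged there from -0.57 for Cox6a1 to 0.85 for Ndufa7, with no adjusted p under 0.0712.

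Subunit genes were mostly a little higher in N1c than in control, but none passed the threshold. Of 83, 0 were called, where 1.65% of all genes were (0.937% higher and 0.714% lower), and 18 had an unadjusted p under 0.05, all of them higher. Over all 19752 genes, 1621 had one, 808 of them higher. The difference was positive for 76 of 83 (91.6%, against 47.8% of all genes), with a median of 0.191 against -0.0063 over all genes. By complex, the median was 0.197 in complex I, 0.157 in complex II, 0.164 in complex III, 0.226 in complex IV and 0.198 in complex V. For 15 genes all N1c arrays lay above all control arrays (18.1%, where 2.9% of all genes did), among them Cox4i1, Cox5a and Cox5b of complex IV, Uqcr10, Uqcrc2 and Uqcrq of complex III, Ndufa10 and Ndufv2 of complex I and Atp5g3 of complex V. For 1 gene, the muscle form Cox8b, all N1c arrays lay below all control arrays (1.2%, where 2.83% of all genes did).

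The most positive member in N1c was Ndufa6, an accessory subunit of the peripheral arm of complex I. It read 551, 582, 964 and 641 in N1c, against 431, 402, 450 and 492 in control, a difference of 0.59 ± 0.20 (adjusted p = 0.247). The N1c arrays did not overlap control, and N1c 4 was far above the other 3. Uqcrq, a small subunit of complex III, read 362, 384, 518 and 327 in N1c, against 275, 268, 327 and 294 in control, a difference of 0.43 ± 0.15 (adjusted p = 0.279). It passed the threshold with the replicate number as a block over all groups (adjusted p = 0.0285) but not in N1c and control alone with that block (adjusted p = 0.123), and N1c 5 lay only just above the highest control array. The other extremes were Sdhb (0.20 ± 0.11) and Sdha (-0.20 ± 0.14) in complex II, Uqcr11 (0.09 ± 0.19) in complex III, Cox7a2 (0.37 ± 0.17) and Cox8b (-0.19 ± 0.13) in complex IV, Atp5e (0.42 ± 0.22) and Atp5a1 (-0.03 ± 0.15) in complex V and Ndufa9 (-0.02 ± 0.11) in complex I.

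RBPJdel differed less from control. Again 0 of 83 were called, where 0.111% of all genes were (0.0354% higher and 0.0759% lower), and 2 had an unadjusted p under 0.05, each of them higher. Over all 19752 genes, 1331 had one, 520 of them higher. The difference was positive for 74 of 83 (89.2%, against 58.8% of all genes), with a median of 0.105 against 0.0267. The 2 genes whose RBPJdel arrays all lay above control (2.41%, where 2.81% of all genes did) were Cox5b and Atp5g1, and no member lay below control in all of them, where 3.08% of all genes did. The extremes were Ndufs8 (0.30 ± 0.16) and Ndufs1 (-0.09 ± 0.12) in complex I, Sdhd (0.20 ± 0.13) and Sdha (0.03 ± 0.14) in complex II, Uqcrc1 (0.22 ± 0.11) and Uqcrb (-0.12 ± 0.17) in complex III, Cox6a1 (0.22 ± 0.16) and Cox8b (-0.08 ± 0.13) in complex IV, and Atp5d (0.51 ± 0.36) and Atp5l (0.02 ± 0.22) in complex V. Without RBPJdel 4 the difference of Cox6a1 was 0.03, and without control 5 that of Atp5d was 0.21. N1c and RBPJdel were compared with the same control arrays, so their shared sign is no second observation.

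Both shifts were smaller without 1 array, N1c 4 in the N1c group and RBPJdel 4 in the RBPJdel group. The median subunit level, taken over the genes as log2 intensity minus each gene's mean over the 15 arrays, was 0.312 on N1c 4 and 0.270 on RBPJdel 4. It was 0.113, -0.0113 and 0.0466 on the other N1c arrays, -0.0897 to -0.0304 on the other RBPJdel arrays, -0.0882 to 0.0593 in N1c_RBPJdel and -0.111 to -0.0581 in control. N1c 4 was the highest N1c array for 57 of 83 genes, and RBPJdel 4 the highest RBPJdel array for 67. N1c 4 and RBPJdel 4 share a replicate number, and their deviations from the group mean correlated at 0.457 over all genes. Control 4 has that number too and correlated at 0.341 with N1c 4 and 0.417 with RBPJdel 4. No control array had a subunit level above -0.0581. Without RBPJdel 4, 46 of 83 differences from control were positive, with a median of 0.0129. Without N1c 4, 70 of 83 were positive with a median of 0.120, and the medians of the complexes lay between 0.0648 for complex II and 0.146 for complex IV. Both arrays were also the lowest of their groups for 29 cell cycle genes, at -0.0929 on N1c 4 against 0.278 to 0.468 on the other N1c arrays, and at -0.295 on RBPJdel 4 against 0.246 to 0.476 on the other RBPJdel arrays. The part of that difference in the subunit levels was not tested.

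**Figure D5:**
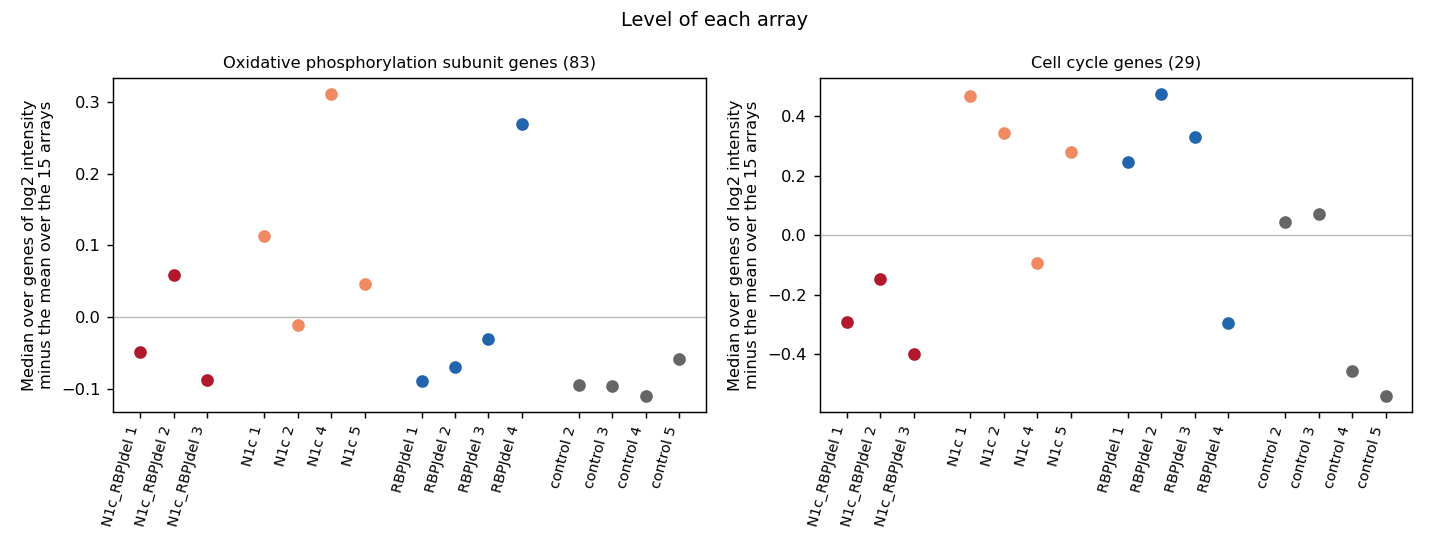
Median over the 83 subunit genes (left) and over 29 cell cycle genes (right) of log2 intensity minus the gene's mean over the 15 arrays, one point per array, coloured by genotype. N1c 4 and RBPJdel 4 stand above all other arrays for the subunit genes, at 0.312 and 0.270, and are the lowest of their groups for the cell cycle genes.

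The interaction asks whether the step of adding the Notch1 allele differed between cells without and with RBPJ. Apart from Atp5md, no subunit gene was called, and the lowest adjusted p among them was 0.0799. The difference was negative for 68 of 83 genes, with a median of -0.246 against -0.0077 over all genes and -0.0797 over the brighter ones, and for all 17 genes of complex V. It was positive for 15 of 83 (18.1%), against 48.7% of all genes and 35.9% of the brighter ones. Quantile normalization gave a median of -0.137 with 24 positive, and cyclic loess -0.135 with 25, against -0.0258 and -0.003 over all genes. It was negative for 28 of 36 genes in complex I, 4 of 4 in complex II, 7 of 9 in complex III and 12 of 17 in complex IV. Without N1c 4 and RBPJdel 4 the median was -0.0998, with 33 positive. All 4 groups enter this value, so it holds the same arrays as the comparisons above.

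Atp5d, the delta subunit in the central stalk of ATP synthase, varied widely between arrays of the same genotype. It read 4237, 5367 and 2342 in N1c_RBPJdel, 5830, 5203, 4805 and 1641 in N1c, 6209, 5540, 5293 and 4457 in RBPJdel, and 4840, 5214, 3882 and 2020 in control. N1c_RBPJdel 3, N1c 5 and control 5 were far below the rest, and every pair of groups overlapped. Its difference of 0.51 ± 0.36 in RBPJdel against control was the largest of complex V and had the widest SE.

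For 17 of the 83 genes the array holds more than 1 cluster, 108 clusters in all over the members, and in each of the 17 the IDs beside the clusters place exactly 1 at the gene's own locus. The brightest cluster was elsewhere for 9 of them. Some of these clusters lie on the chromosome of a pseudogene of the same gene, such as chromosome 11 for Atp5pb and chromosome 7 for Atp5l. Whether they read the pseudogene was not tested. Clusters of a gene differed by at most 0.119 on the log2 scale in N1c against control, and by a median of 0.0796 in N1c_RBPJdel against N1c, where Cox7a2l, Ndufc1 and Atp5pb differed by more than 0.2. Cox7a2l, known for its part in joining complexes III and IV, read 297, 242 and 222 in N1c_RBPJdel at its own-locus cluster 10453254. The same cluster read 365, 368, 576 and 565 in N1c, 321, 290, 410 and 680 in RBPJdel, and 337, 337, 441 and 494 in control. The difference from N1c was -0.86 ± 0.26 (adjusted p = 0.0490 over all clusters), while the brightest cluster of the gene gave -0.20 ± 0.17 (adjusted p = 0.486). The own-locus cluster of Cox7b, a small complex IV subunit, was also lower than in N1c (-0.36 ± 0.10, adjusted p = 0.0382), and its brightest cluster gave -0.16 ± 0.14 (adjusted p = 0.487). For Ndufc1 and Atp5pb, the clusters differed in sign, at 0.18 and -0.12 and at -0.23 and 0.05, and none passed the threshold.

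Of 8 measured genes for cytochrome c and electron donors, 2 were higher in N1c_RBPJdel against control (Cycs and Etfb) and 1 lower (Gpd2). There 3.77% of all genes were higher and 5.12% lower. Against RBPJdel 1 was higher (Cycs) and 1 lower (Gpd2), where 1.32% and 0.967% of all genes were. In N1c_RBPJdel against N1c 1 was called, where 9.23% of all genes were, and in N1c against control 1 was, where 1.65% were. Cycs, the cytochrome c that carries electrons from complex III to complex IV, rose in N1c_RBPJdel by 0.44 ± 0.12 against N1c (adjusted p = 0.0322), by 0.63 ± 0.12 against RBPJdel (adjusted p = 0.0175) and by 0.52 ± 0.12 against control (adjusted p = 0.0173). Gpd2, the glycerol phosphate dehydrogenase that feeds ubiquinone from the cytosol side, fell by 0.60 ± 0.11 in N1c against control (adjusted p = 0.00569) and by 0.64 ± 0.12 in N1c_RBPJdel against control (adjusted p = 0.00592). Of 16 measured genes of TCA cycle enzymes, 15 were negative and 1 positive in N1c_RBPJdel against N1c, where 53.5% of all genes and 35% of the brighter ones were positive. Their median was -0.224, against 0.0202 over all genes and -0.0901 over the brighter ones. Of the 16, 1 fell, where 9.23% of all genes were called, namely Dlst of the oxoglutarate dehydrogenase complex (-0.32 ± 0.09, adjusted p = 0.0322), which also fell against control (-0.31 ± 0.09, adjusted p = 0.0395). The succinyl-CoA ligase subunit gene Suclg2 fell in N1c_RBPJdel against RBPJdel (-0.51 ± 0.12, adjusted p = 0.0370) and against control (-0.48 ± 0.12, adjusted p = 0.0214).

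The counts of the lists that follow stand beside 9.23% of all genes called in N1c_RBPJdel against N1c (4.58% higher and 4.65% lower), 2.29% against RBPJdel, 8.9% against control (3.77% higher and 5.12% lower) and 1.65% in N1c against control. Of 41 measured assembly factors, 1 fell in N1c_RBPJdel against N1c, the copper chaperone Cox17 (-0.59 ± 0.17, adjusted p = 0.0435), and 2 rose against control, Ndufaf3 (0.44 ± 0.11, adjusted p = 0.0227) and Cox20 (0.74 ± 0.20, adjusted p = 0.0299). Tmem126b, for an assembly factor of complex I, rose against RBPJdel (0.47 ± 0.11, adjusted p = 0.0383). Among 15 regulators of mitochondrial biogenesis, 1 fell against N1c, the transcription factor gene Nrf1 (-0.37 ± 0.09, adjusted p = 0.0134), and it also fell against control (-0.36 ± 0.09, adjusted p = 0.0179), as did Polg, for the mitochondrial DNA polymerase (-0.41 ± 0.12, adjusted p = 0.0465). Micos10, a subunit of the complex that shapes cristae, fell against N1c (-0.73 ± 0.15, adjusted p = 0.00778) and was the 1 called gene of 15 for mitochondrial dynamics and cristae in that comparison. Against control 3 of these 15 fell, Micos10 (-0.55 ± 0.15, adjusted p = 0.0367) and the fusion genes Mfn1 (-0.50 ± 0.12, adjusted p = 0.0172) and Opa1 (-0.47 ± 0.14, adjusted p = 0.0470). Of 77 genes for proteins of the mitochondrial ribosome, 5 fell in N1c_RBPJdel against N1c, led by Mrps28 (-0.65 ± 0.14, adjusted p = 0.0102), with a list median of -0.0838, and 0 were called in N1c against control, where 68 were positive with a median of 0.153. No gene of the assembly factor, TCA cycle, biogenesis or cristae lists was called in N1c or RBPJdel against control. The 29 cell cycle genes had a median of -0.691 in N1c_RBPJdel against N1c, with 10 lower, and of 0.484 in N1c against control, with 2 higher.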

How the data were processed

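Splenic Treg of 4 genotypes were profiled on 15 Affymetrix Mouse Gene ST arrays. The authors deposited 1 linear intensity per transcript cluster and array (5.61 to 18030), and the submitters' processing notes name RMA and Affymetrix Power Tools, with no version. The deposited intensities were converted to log2 here. As deposited, the array medians ran from 107 to 117 and the 75th percentiles from 325 to 385, and no further normalization was applied for the reported values. Of 24922 clusters, 21425 name 1 gene, and the brightest cluster per gene gave 19752 genes, with promoters from RefSeq (GRCm38.p6).

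limma 3.58.1 in R 4.3.3 was fitted over all 15 arrays with 1 mean per genotype (lmFit and eBayes, two-sided, Benjamini-Hochberg adjustment, 11 residual degrees of freedom), after it was tested on simulated data. The number of arrays limits the precision, and p-values measure the spread between pools of mice. No 2 arrays held identical values.

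The named genes were Atp5md, each subunit gene called in a comparison, the most positive and most negative gene of each complex in 3 comparisons, genes with several clusters, the 5 measured neighbours of Atp5md on each side, and up to 3 called genes per context list. The members and lists were chosen with earlier results of these data known. A cluster was placed at a gene's own locus where clusters beside it in ID order name genes within 3 megabases. Deviations from the group mean correlated between same-numbered N1c and control arrays at 0.341 to 0.497 over 3 pairs, which meets the rule for pairing, and other groups did not meet it. Between differently numbered N1c and control arrays the correlations ran from -0.426 to 0.371. Among arrays numbered 4, N1c and RBPJdel correlated at 0.457, and RBPJdel and control at 0.417. Alternatives covered normalization, choice of cluster, dim genes, arrays in the fit, array weights, the variance prior, the replicate number as a block and each array left out.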

Additional observations from a re-analysis of the deposited data

Results flagged for a closer look

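The interaction term for Atp5md was -2.64 on the log2 scale and passed the threshold (adjusted p = 1.75e-06). It holds the N1c_RBPJdel arrays, for which genotype and sorter cannot be told apart.

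In each of 96 sets of 4 arrays, taken over the named genes and the complex medians in N1c, RBPJdel and control, the gap between an end array and its nearest neighbour was compared with the whole range by Dixon's criterion at its 95% level. In 9 sets an array stood apart. The named genes were picked from these same arrays, and the sets share arrays. The chance rate of about 1 set in 20 therefore does not hold for them. Of the 9 sets, 5 were on RBPJdel 4. RBPJdel 4 read 1315 for Cox6a1 (other RBPJdel arrays 735 to 787) and 439 for Uqcrq (others 271 to 284). Its median centred level was 0.270 over all subunit genes (others -0.0897 to -0.0304), 0.181 over complex IV and 0.340 over complex V. N1c 4 read 255 for Ndufa1, where the other N1c arrays read 145 to 155. N1c 5 read 1641 for Atp5d, where the others read 4805 to 5830. Control 5 read 86.2 for Cox8b, where the other control arrays read 71.5 to 72.0, and control 2 had a median centred level of -0.0196 over complex II, above the other control arrays.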

How the results depend on the processing

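Atp5md passed the threshold in all 27 alternatives of each of the 3 comparisons with N1c_RBPJdel and in all 26 of the interaction, with largest adjusted p of 3.6e-05 against N1c, 0.000737 against RBPJdel, 0.000777 against control and 0.000329 in the interaction. Other counts of called subunit genes moved with the processing. Quantile and cyclic loess normalization each gave 1 in N1c against control (0 as reported), 2 in N1c_RBPJdel against RBPJdel (1) and 11 against control (5). The shares of all genes called in these 3 comparisons were 1.76%, 2.2% and 5.78% under quantile normalization. Under cyclic loess they were 1.95%, 1.86% and 5.23%. Array weights gave 2 in N1c against control, where 3.71% of all genes were called. In N1c_RBPJdel against N1c (3), testing every cluster gave 6 genes and the own-locus cluster 5. There 8.91% of all clusters and 9.24% of all genes were called. Against control, brighter genes alone gave 8 and a fit of the 2 groups alone gave 2. There 14% of the brighter genes and 2.06% of all genes were called. The replicate block gave 1 in N1c against control (0 in that pair alone), 13 in N1c_RBPJdel against N1c, 9 against RBPJdel and 19 against control, but in the last 3 the arrays share only a number. Under the block the shares of all genes called were, in that order, 2.5%, 18.7%, 10.7% and 19.1%. As reported they were 1.65%, 9.23%, 2.29% and 8.9%. With N1c 4 and RBPJdel 4 both left out, chosen after seeing the data, the counts in N1c_RBPJdel against N1c, RBPJdel and control were 7, 3 and 8. There 7.41%, 1.92% and 7.68% of all genes were called. Leaving out 1 array at a time gave 0 to 1 genes in N1c against control, with 1 without N1c 2 (1.39% of all genes called). In N1c_RBPJdel against N1c it gave 1 to 8. The count was 1 without N1c_RBPJdel 1 (4.57% of all genes) or N1c 1 (4.88%). It was 8 without N1c 5 (12.9%), 6 without N1c_RBPJdel 2 (15.5%) and 5 without RBPJdel 4 (9.61%). Against RBPJdel it was 1 to 2, with 2 without N1c_RBPJdel 2 (9.57% of all genes), N1c_RBPJdel 3 (2.34%) or RBPJdel 4 (2.13%). Against control it was 1 to 8, with 8 without RBPJdel 4 (8.78% of all genes) and 2 without control 2 (3.76%). It was 1 there without N1c_RBPJdel 1 (2.68%), N1c_RBPJdel 2 (15.6%), control 3 (3.42%) or control 4 (4.3%). The interaction gave 1 to 3, with 3 without N1c_RBPJdel 2 (2.42% of all genes). The cause of these shifts was not tested.

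Of the values close to 0, some turned. Leaving out 1 array gave -0.168 to 0.113 for Atp5a1, -0.0900 to 0.0309 for Ndufa9 and -0.0359 to 0.153 for Uqcr11 in N1c against control. It gave -0.204 to 0.20 for Atp5l and -0.0454 to 0.100 for Sdha in RBPJdel against control, and -0.0353 to 0.243 for Atp5g1 in N1c_RBPJdel against N1c. Ndufa9 was 0.0021 with the block in N1c and control alone, and Uqcr11 -0.0359 without N1c 4 and RBPJdel 4. Atp5l was -0.0056 as the mean of its clusters, -0.0518 at its own-locus cluster and -0.204 without both arrays, and Sdha was -0.0966 with array weights and -0.0863 with the block.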
